A study of Mus musculus with 30 samples.

Results

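Collagen VI is a protein of the extracellular matrix, and its genes were followed here in subcutaneous mouse melanomas treated with antibodies that act on immune cells. The members were chosen by symbol from the 6 mouse genes Col6a1 to Col6a6, and the family was taken up because its levels were seen to differ between anti-PD1 and control tumors of wild type hosts. The table of 18975 genes held 4 of the 6 symbols, Col6a1, Col6a2, Col6a3 and Col6a4. Col6a5 and Col6a6 were not analysed here. All 4 genes passed the filter on low values (log2 over 0 in 3 or more libraries), as did 15002 genes in all. Col6a1, Col6a2 and Col6a3 were above that level in all 30 libraries and Col6a4 in 3.

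RNA was sequenced from 30 tumors grown from the melanoma line B16F10 under the skin of female C57BL/6 mice, per the labels. The hosts were wild type (titled WT, genotype label "ARE-del +/+") or heterozygous (HET, "ARE-del +/-"). ARE-del is an allele that removes an AU-rich element from the interferon-gamma gene Ifng; the injected tumor cells are a transplanted line and do not come from these hosts. From day 7 of growth, mice received control rat IgG2A (IgG), 0.25 mg anti-PD1, 0.25 mg agonist anti-CD40, or both (the combination), 2 times a week. The 8 groups held 5 WT IgG, 4 WT anti-PD1, 3 WT anti-CD40, 3 WT combination, 4 HET IgG, 3 HET anti-PD1, 4 HET anti-CD40 and 4 HET combination libraries. PD1 is an inhibitory receptor of T cells, and CD40 is a receptor that activates dendritic cells, macrophages and B cells. The labels do not say that each library is a separate animal, so the p-values speak of these libraries' spread, which may be technical.

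Collagen VI is built from chains that the cell joins into a trimer of α1, α2 and a further chain, which in most tissues is α3. Trimers pair inside the cell and are secreted to form beaded microfilaments, which lie around basement membranes, fat cells, muscle fibres and vessels. Fibroblasts, fat cell precursors and pericytes are known to make much of it, and the C-terminal piece cut from α3 is called endotrophin. Col6a1, Col6a2 and Col6a3 encode α1, α2 and α3, and Col6a4 encodes a chain that can take the place of α3. Whole tumors were used, so fewer cells of a type and less RNA per cell cannot be told apart.

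Libraries held 17612565 to 35996574 reads, and 1 read was worth 0.0276 to 0.0596 CPM, a count scaled to the effective library size. The descriptions carry an L number from 5 to 8 that the labels do not explain. All WT IgG libraries and WT anti-PD1 replicates 1 to 3 carry L5, WT anti-PD1 replicate 4 carries L6 with the other WT libraries, and the HET libraries carry L7 or L8 except HET IgG replicate 1 (L6). HET IgG replicate 2 stood apart, with 6.53% of its reads on mitochondrial genes (4.46% or less elsewhere) and an effective library size factor of 0.767 (0.941 or more elsewhere). Melanocyte genes were abundant in all groups: Dct, an enzyme of pigment synthesis, averaged 10137 ± 1055 CPM in WT IgG (SD, n = 5) and 9078 ± 1307 CPM in WT anti-PD1 (SD, n = 4).

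Col6a1 and Col6a2 are neighbours on chromosome 10. In the mm10 build, Col6a1 (ENSMUSG00000001119.7) spans chr10:76708792-76726168 and Col6a2 (ENSMUSG00000020241.9) chr10:76595762-76623630, both on the minus strand and 85161 bp apart. Col6a3 (ENSMUSG00000048126.12) spans chr1:90765923-90843971 and Col6a4 (ENSMUSG00000032572.7) chr9:105989454-106096783, both also on the minus strand. The annotation places the gene model Gm36970 inside Col6a3 on its strand, and Gm24631, Gm36993 and Gm47575 across Col6a4 on the other strand; none of these has a row in the table. Because Col6a1, Col6a2 and Col6a3 rose and fell together across libraries (described after the levels), the sequences upstream of their starts are shown, from RefSeq promoters of GRCm38.p6, on the gene's strand and cut to the bases before every annotated start. The Col6a1 stretch is chr10:76726169-76726294, the Col6a2 stretch chr10:76623631-76623880 and the Col6a3 stretch chr1:90843972-90844221. Capitals mark a match to any of 4 searched motifs, read on both strands.

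Col6a1: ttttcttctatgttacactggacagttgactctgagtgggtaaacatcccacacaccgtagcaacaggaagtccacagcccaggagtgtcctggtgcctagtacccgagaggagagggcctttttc

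Col6a2: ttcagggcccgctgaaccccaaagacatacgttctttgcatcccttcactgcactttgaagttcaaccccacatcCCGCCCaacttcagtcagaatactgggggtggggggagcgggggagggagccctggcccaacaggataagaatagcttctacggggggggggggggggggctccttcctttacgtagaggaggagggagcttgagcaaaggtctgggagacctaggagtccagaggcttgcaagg

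Col6a3: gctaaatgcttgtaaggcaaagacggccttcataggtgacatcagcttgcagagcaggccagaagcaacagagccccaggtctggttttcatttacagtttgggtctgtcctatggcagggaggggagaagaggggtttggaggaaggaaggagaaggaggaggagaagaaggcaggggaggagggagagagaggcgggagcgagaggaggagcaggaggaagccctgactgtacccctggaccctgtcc

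The searched motifs were the GC box (letters GGGCGG), the TATA box (letters TATAAA), the box named CCAAT, and the AP-1 site (letters TGACTCA). No match overlapped a match of another motif. Over the 250 bases before the RefSeq start, Col6a2 held 1 GC box, which 32.7% of 32851 promoters also held at least once. Col6a1 held 1 AP-1 match (4.46% of promoters), in the stretch between its RefSeq start and a GENCODE start that lies 124 bases farther upstream, which is not printed. Col6a3 held no match. No motif was shared by the 3 promoters, and their GC content was 56.0%, 59.2% and 57.2% against a median of 52.4% over all promoters.

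Col6a1 was highest in WT tumors treated with anti-PD1. The 5 WT IgG libraries had 22.2, 34.1, 22.5, 56.0 and 22.4 CPM, and the 4 WT anti-PD1 libraries had 108, 73.7, 148 and 45.4 CPM, in replicate order. Anti-PD1 replicates 1 to 3 were above every control, and replicate 4 lay below IgG replicate 4, so the groups overlapped. The means were 93.7 ± 44.3 CPM (SD, n = 4) and 31.4 ± 14.6 CPM (SD, n = 5), a log2 difference of 1.55 (SE 0.37) in the fit across all genes, or 2.92-fold.

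Col6a2 followed the same order. WT IgG libraries had 25.0, 33.4, 24.6, 54.8 and 23.9 CPM, and WT anti-PD1 libraries had 104, 69.9, 139 and 50.3 CPM. Again 3 of 4 treated libraries exceeded every control and replicate 4 fell below IgG replicate 4. The log2 difference was 1.46 (SE 0.35), or 2.76-fold.

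Col6a3, the chain that carries endotrophin, had the most reads of the family. WT IgG libraries had 32.9, 75.5, 33.6, 103 and 37.6 CPM, and WT anti-PD1 libraries had 187, 130, 245 and 78.3 CPM. The overlap was the same as for the other chains, with anti-PD1 replicate 4 between IgG replicates 2 and 4. The log2 difference was 1.54 (SE 0.43), or 2.91-fold.

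**Figure D1:**
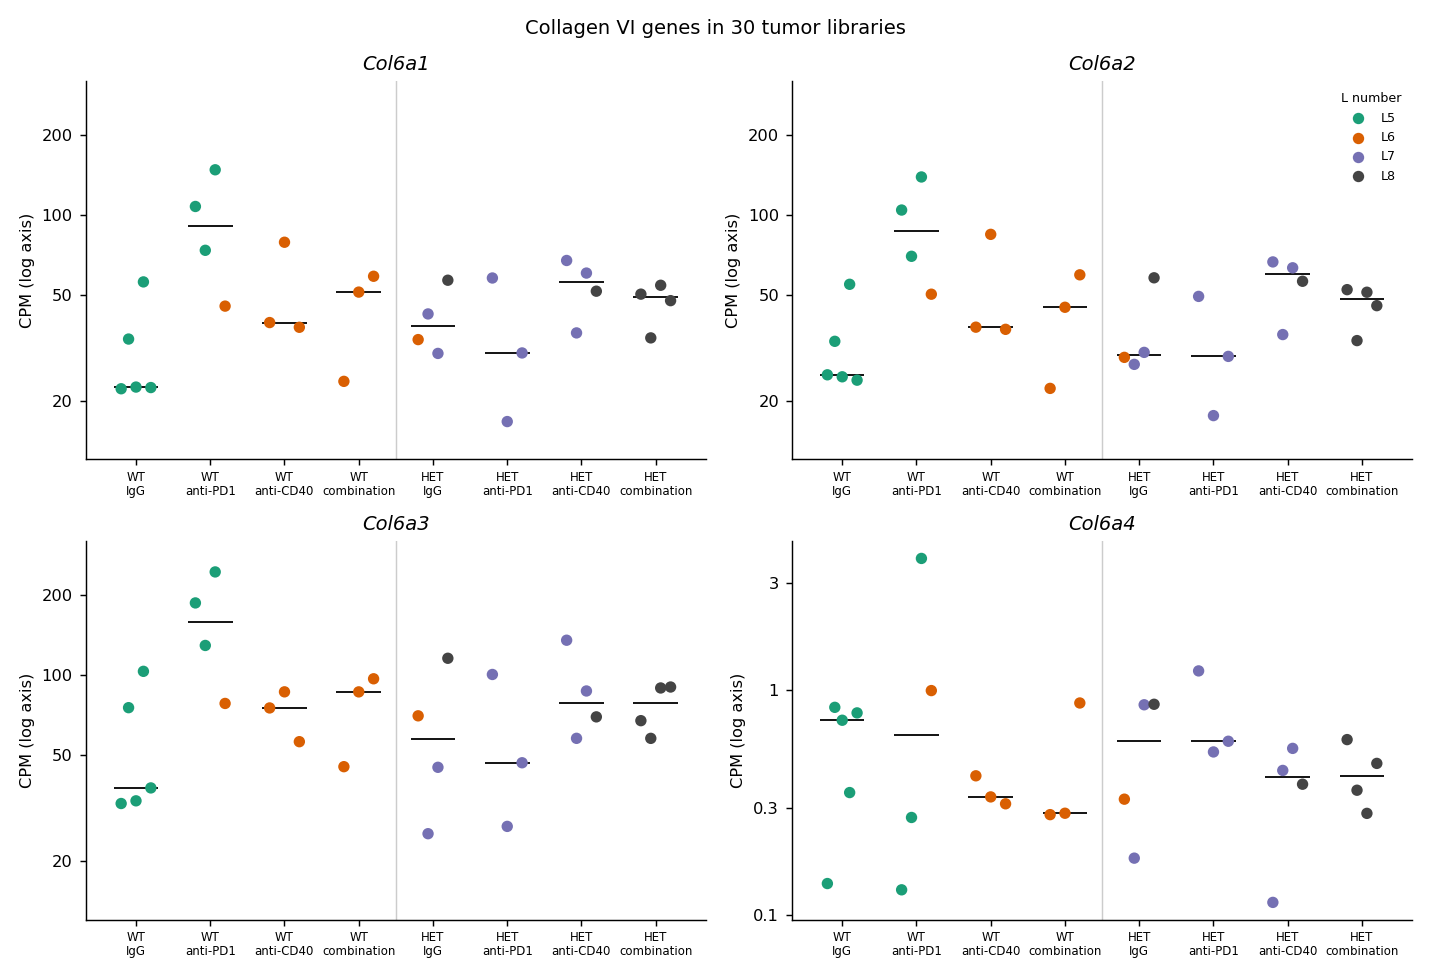
CPM (vertical, log axis) of Col6a1, Col6a2, Col6a3 and Col6a4 in each of 30 libraries, by host and treatment; each point is a library coloured by its L number and each line is the group's median. WT anti-PD1 has the highest median for Col6a1, Col6a2 and Col6a3, with 1 library (L6) below the highest WT IgG library, and Col6a4 lies under 1 CPM in 28 of 30 libraries.

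These values are those the family was chosen on, so they are given as a description and carry no test. Only 0.280%, 0.333% and 0.287% of the 15002 genes had a higher log2 difference in this comparison than Col6a1, Col6a2 and Col6a3, and the median over all genes was -0.02. Across all genes, limma at a Benjamini-Hochberg adjusted p of 0.05 called 0 of 15002 genes (0%) here, with 413 at an unadjusted p under 0.05. Limma voom on the recovered reads also called 0, with 365 at an unadjusted p under 0.05. Among the L5 libraries, where only anti-PD1 replicate 4 drops out, every anti-PD1 library was above every control for Col6a1, Col6a2 and Col6a3, as for 274 of 15002 genes (1.83%). The log2 differences there were 1.85, 1.71 and 1.84. With a weight estimated for each library they were 1.06, 1.03 and 1.02 in all libraries.

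Col6a4 was scarce, with 3 to 83 reads in a library (median 12). WT IgG libraries had 0.138, 0.840, 0.736, 0.351 and 0.794 CPM, and WT anti-PD1 libraries had 0.129, 0.272, 3.87 and 0.998 CPM. The highest value came from 83 reads in anti-PD1 replicate 3, which was also the highest library for the other chains, while anti-PD1 replicate 1, the next highest for those chains, had 3 reads. The log2 difference was 0.39 (SE 0.63), and without replicate 3 it was -0.41. The sign thus turned with 1 library, and the libraries of the group spread widely (log2 SD 1.88), so no direction can be read for Col6a4.

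In HET hosts the chains did not follow that pattern. Col6a1 had 33.9, 42.4, 30.1 and 56.8 CPM in HET IgG and 57.9, 16.7 and 30.2 CPM in HET anti-PD1. Of the 3 anti-PD1 libraries, 1 was the highest of these 7 and 1 was the lowest of all 30. The log2 difference was -0.36 (95% interval -1.22 to 0.49; limma adjusted p = 1).

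Col6a2 had 29.1, 27.4, 30.4 and 58.0 CPM in HET IgG and 49.4, 17.5 and 29.3 CPM in HET anti-PD1. The groups overlapped, and the log2 difference was -0.23 (95% interval -1.05 to 0.60; limma adjusted p = 1). Col6a3 had 70.3, 25.3, 45.0 and 116 CPM in HET IgG and 100.7, 26.9 and 46.8 CPM in HET anti-PD1, a log2 difference of -0.13 (95% interval -1.13 to 0.86; limma adjusted p = 1). The low Col6a3 control is HET IgG replicate 2, the library that stood apart. Without it the differences of Col6a1, Col6a2 and Col6a3 were -0.33, -0.34 and -0.51; without HET anti-PD1 replicate 2, the lowest library, they were 0.08, 0.14 and 0.31. No gene of 15002 was called in this comparison (0%), with 144 at an unadjusted p under 0.05 in limma and 134 in voom. Given library weights, limma called 50 genes, none of them a collagen VI gene. Col6a4 had 0.179 to 0.867 CPM in HET IgG and 0.532 to 1.22 CPM in HET anti-PD1, and the difference of 0.55 carried an adjusted p of 1.

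The chains were lower in HET than in WT tumors under anti-PD1, by a log2 difference of -1.47 (SE 0.42) for Col6a1, -1.52 (SE 0.40) for Col6a2 and -1.55 (SE 0.49) for Col6a3. For Col6a2 every HET anti-PD1 library (17.5 to 49.4 CPM) lay below every WT anti-PD1 library (50.3 to 139 CPM), as for 318 of 15002 genes (2.12%), while for Col6a1 and Col6a3 HET replicate 1 lay above WT replicate 4. Limma called 0 genes (0%), with 321 at an unadjusted p under 0.05 (voom: 0 called, 297). Markers were lower alongside: all 12 fibroblast markers (median -1.33; 162 to 221 CPM summed in HET against 220 to 368 CPM in WT), all 8 fibril collagens (median -1.35), all 6 pericyte markers (median -0.28) and all 8 macrophage markers (median -0.43), with no gene called and none at 0 throughout a group. Other lists were mixed. Lower were 6 of 7 endothelial markers (median -0.32), 7 of 8 adipocyte markers (median -1.03) and the 2 T cell markers that passed the filter (median -1.34). Higher were 7 of 11 muscle markers (median 0.76), 5 of 10 keratinocyte markers (median 0.16) and 4 of 7 melanocyte markers (median 0.07). None was called. The part of the fibroblast, fibril collagen, pericyte, macrophage, endothelial, T cell and melanocyte genes in the difference was not tested. The WT anti-PD1 libraries entered the choice of the family, so this difference is also a description with no test. These groups share no L number, so L number and host cannot be told apart. With L number in the model, the differences of Col6a1, Col6a2 and Col6a3 were -0.76, -0.92 and 0.05. In that model the step from L5 to L6 rests on WT anti-PD1 replicate 4. The step from L6 to L7 or L8 rests on HET IgG replicate 1.

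**Figure D2:**
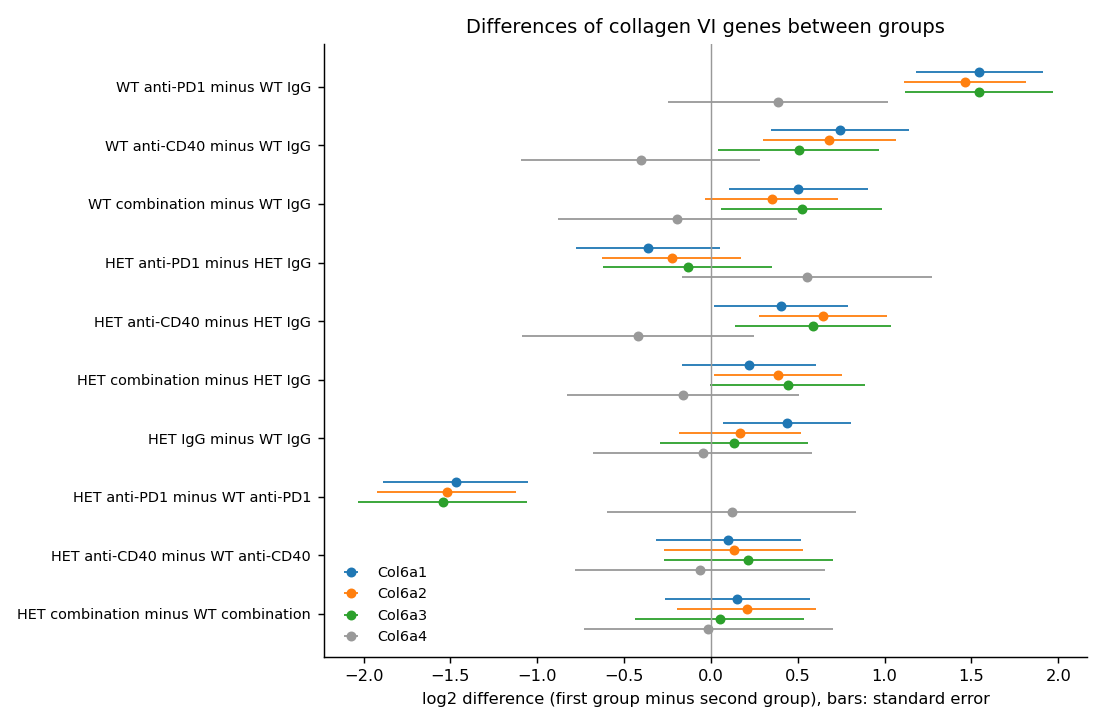
Log2 difference (horizontal) of each collagen VI gene in 10 comparisons (vertical), first group minus second, with bars of 1 standard error from limma. The differences of Col6a1, Col6a2 and Col6a3 lie near 1.5 for WT anti-PD1 minus WT IgG and near -1.5 for HET anti-PD1 minus WT anti-PD1, and between -0.4 and 0.8 in the other comparisons.

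Under anti-CD40 the chains lay between the control and anti-PD1 levels of WT tumors. WT anti-CD40 libraries had 39.3, 79.0 and 37.8 CPM of Col6a1, 37.8, 84.6 and 37.1 CPM of Col6a2, and 75.3, 86.6 and 56.2 CPM of Col6a3. Replicate 2 was the highest for each chain, and the libraries overlapped those of WT IgG. That library had the highest keratinocyte score of all 30 (6.96; 2332 CPM summed, against 12.3 to 374 CPM in WT IgG). In this comparison all 10 keratinocyte markers (median 3.21), 10 of 12 fibroblast markers (median 0.92) and 6 of 8 fibril collagens (median 0.64) were higher. The log2 differences from WT IgG were 0.74, 0.68 and 0.51, given with no test because WT IgG entered the choice; without replicate 2 they were 0.40, 0.29 and 0.37. In the WT combination, Col6a1 had 23.6, 51.2 and 58.8 CPM, and the differences from WT IgG for Col6a1, Col6a2 and Col6a3 were 0.50, 0.35 and 0.52, or 0.25, 0.05 and 0.31 without combination replicate 3. There 11 of 12 fibroblast markers were higher (median 0.52) and all 10 keratinocyte markers lower (median -1.48), with Krt1, Lor and Krtdap at 0 in all 3 combination libraries. All 8 adipocyte markers that passed the filter were higher under anti-CD40 (median 0.43) and lower under the combination (median -0.39). No marker was called in either comparison, and the part of the fibroblast markers was not tested. Over all alternatives, muscle, keratinocyte and adipocyte scores as covariates among them, the Col6a1, Col6a2 and Col6a3 differences stayed above 0. They ran from 0.29 to 1.96 for anti-CD40 and from 0.05 to 1.73 for the combination. The WT comparisons share their control libraries. All 6 of these treated libraries carry L6 and all WT IgG libraries L5, so treatment and L number cannot be told apart in them. With L number in the model the differences were 1.96, 1.68 and 1.71 for anti-CD40 and 1.72, 1.35 and 1.73 for the combination. The step from L5 to L6 in that model is set by WT anti-PD1 replicate 4 against the L5 libraries of its group. These values thus rest on that library and cannot separate either treatment from L number. Limma called 0 of 15002 genes for both (0%), with 777 genes for anti-CD40 and 62 for the combination at an unadjusted p under 0.05 (voom: 0 called, 582 and 54).

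In HET tumors, Col6a1 had 67.4, 36.0, 60.5 and 51.7 CPM under anti-CD40 and 50.3, 34.4, 54.4 and 47.6 CPM under the combination. Col6a2 had 66.6, 35.5, 63.3 and 56.3 CPM, and 52.3, 33.6, 51.2 and 45.6 CPM. Col6a3 had 136, 57.9, 87.3 and 69.7 CPM, and 67.4, 57.8, 89.6 and 90.3 CPM. All these groups overlapped HET IgG. Against HET IgG, anti-CD40 differed by 0.40, 0.64 and 0.59 (limma adjusted p = 0.61, 0.39 and 0.52), and the combination by 0.22, 0.39 and 0.44 (adjusted p = 0.88, 0.75 and 0.76). Over the alternatives, the adjusted p ranged from 0.20 to 0.999 for Col6a2 under anti-CD40, and it passed 0.05 for no member in any comparison tested. Without HET IgG replicate 2 the Col6a3 differences were 0.22 and 0.07. Background calls were 0 of 15002 in each (0%), with 2230 and 1472 genes at an unadjusted p under 0.05 in limma and 2172 and 1344 in voom; with library weights limma called 60 and 407.

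In HET tumors under anti-CD40 or the combination, markers of muscle, skin and fat were higher as well. All 11 muscle markers were higher under anti-CD40 (median log2 difference 3.38), with a summed level of 33.4 to 526 CPM against 4.78 to 298 CPM in HET IgG. All 10 keratinocyte markers (median 3.77) and all 8 adipocyte markers that passed the filter (median 2.34) were higher too. Under the combination all members of the 3 lists were higher, with medians of 2.55, 3.94 and 3.10, and none was called under either treatment. All 12 fibroblast markers (medians 1.88 under anti-CD40 and 2.23 under the combination), all 8 macrophage markers (1.16 and 1.38) and all 8 fibril collagens (0.94 and 1.15) were higher under both. The summed fibroblast level was 210 to 309 CPM under anti-CD40 and 217 to 322 CPM under the combination, against 154 to 234 CPM in HET IgG. Of 6 T cell markers, 2 passed the filter and both were higher (medians 2.99 and 2.54), at summed levels of 1.58 to 14.6 and 1.60 to 6.05 against 0.119 to 0.792 CPM. None of these genes was called, no marker of the lists was at 0 throughout a group, and the part of the fibroblast, macrophage and T cell markers was not tested. With the muscle, keratinocyte and adipocyte scores in the model, the differences of Col6a1, Col6a2 and Col6a3 were -0.18, 0.03 and 0.16 under anti-CD40 and -0.50, -0.34 and -0.08 under the combination. Between hosts, HET minus WT was 0.10, 0.13 and 0.22 under anti-CD40 (limma adjusted p = 1 for each) and 0.15, 0.21 and 0.05 under the combination (adjusted p = 0.92, 0.89 and 0.98). With the same 3 scores in the model every sign turned, to -0.45, -0.43 and -0.62 under anti-CD40 and -0.62, -0.59 and -0.52 under the combination. The WT libraries of these treatments carry L6 and the HET ones L7 or L8, so host and L number cannot be told apart in either comparison. Limma called 0 of 15002 genes in both (0%), with 575 and 834 at an unadjusted p under 0.05 (voom: 0 called, 605 and 778); with library weights it called 0 and 23.

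Among controls, HET minus WT IgG was 0.44, 0.17 and 0.13 for Col6a1, Col6a2 and Col6a3, with no test because WT IgG entered the choice (limma called 0 of 15002 genes, 0%, with 310 at an unadjusted p under 0.05; voom 0 and 207). Without HET IgG replicate 2 these were 0.41, 0.28 and 0.51, and without HET IgG replicate 4 they were 0.26, -0.08 and -0.23, so the sign for Col6a2 and Col6a3 turned with 1 library; Col6a3 was also below 0 without WT IgG replicate 1 or 3 (-0.02 and -0.01). With L number in the model they were 1.43, 0.92 and 1.69. WT IgG shares no L number with HET IgG, so these values rest on WT anti-PD1 replicate 4, the only link from L5 to L6. Beside these values, 10 of 11 muscle markers were higher in HET IgG (median 0.53), while 9 of 12 fibroblast markers (median -0.29) and all 10 keratinocyte markers (median -0.96) were lower. Ordered by mean log2 value over the 8 groups, WT anti-PD1 was first and HET anti-CD40 second for each chain. The step between these groups was 0.70, 0.65 and 0.82 on the log2 scale, beside a pooled SD of 0.59, 0.54 and 0.63; the family was chosen on the first group, so the order is a description. Without WT anti-PD1 replicate 3 the step was 0.439, 0.411 and 0.575, under the pooled SD of 0.523, 0.474 and 0.582. It was also under it for Col6a1 and Col6a2 without WT anti-PD1 replicate 1 (0.59 and 0.55) or HET anti-CD40 replicate 2 (0.52 and 0.45). Every later step in the order was smaller than the pooled SD of its pair. The order ended with HET IgG, HET anti-PD1 and WT IgG for Col6a1, and with the same 3 groups in another order for Col6a2 and Col6a3. Group means accounted for 46.9%, 50% and 40.8% of the log2 variation of Col6a1, Col6a2 and Col6a3 and for 12.4% of that of Col6a4. With 8 group means fitted to 30 libraries, part of any such share arises by chance. The groups the family was chosen on are among them, so the shares are a description.

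The α1, α2 and α3 genes rose and fell together from library to library. Over 30 libraries, Pearson's r of log2 values was 0.98 for Col6a1 with Col6a2, 0.90 for Col6a1 with Col6a3 and 0.91 for Col6a2 with Col6a3. These libraries include the groups the family was chosen on, so the relation was tested in the 21 libraries outside WT IgG and WT anti-PD1. Those 21 libraries still share treatment groups and L numbers. There r was 0.96 (rho 0.94), 0.78 (rho 0.81) and 0.83 (rho 0.81). The permutation p-values of r, adjusted over the 3 pairs, were 1e-05, 2e-05 and 1e-05 (1e-05 is the smallest that the 100000 permutations can give), and those of rho were 3e-05, 4e-05 and 4e-05. The permutations ran across groups and L numbers, so these p-values take no account of either. Without the 2 libraries farthest from the median, r was 0.94, 0.69 and 0.77, and without HET IgG replicate 2 it was 0.98, 0.91 and 0.85. Within an L number (6 to 8 libraries), r ranged from 0.94 to 1.00, from 0.73 to 0.99 and from 0.59 to 0.98. In L8, the Col6a1 and Col6a3 value of 0.73 rested on 2 libraries: without the farthest 2 it was -0.03. The other pairs fell there as well, from 0.96 to 0.62 for Col6a1 with Col6a2 and from 0.59 to 0.42 for Col6a2 with Col6a3.

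After the group means were removed from all 30 libraries, r was 0.97, 0.84 and 0.86. With the group means kept, 15000 genes were also ranked by r with the mean of the other pair of chains over all 30 libraries. Col6a1 (0.96) and Col6a2 (0.97) each ranked 1, and Col6a3 (0.91) ranked 2 behind Bgn. The libraries include the groups the family was chosen on, so the ranking is a description. Col6a4 did not track the others, with r 0.17 and rho 0.003 against their mean.

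**Figure D3:**
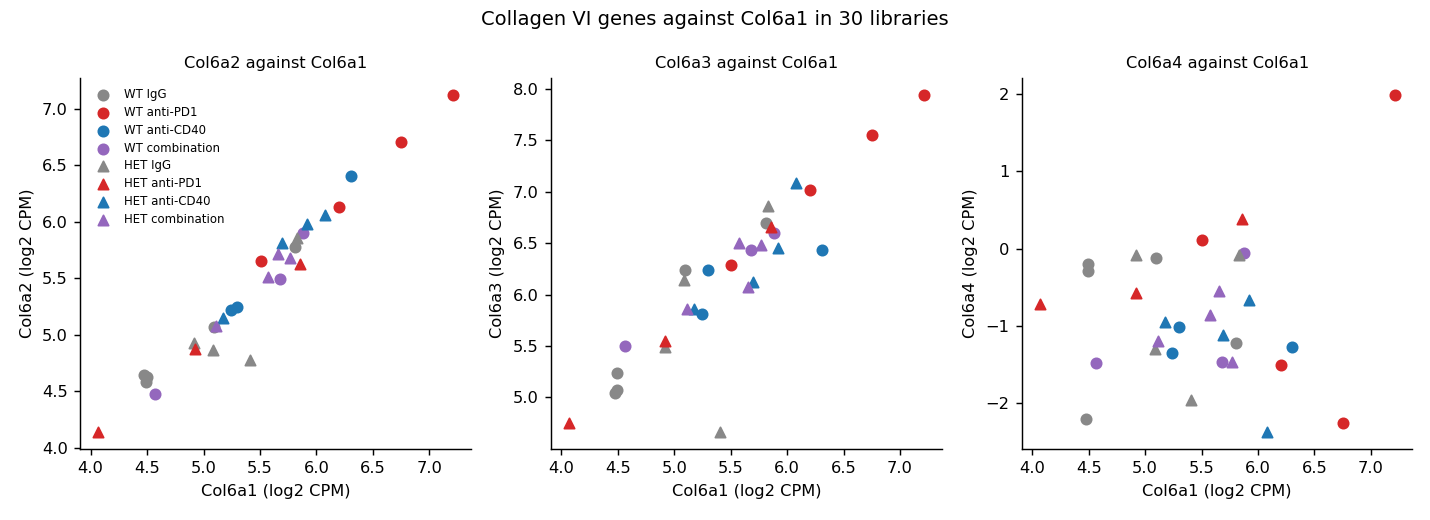
Deposited log2 CPM of Col6a2, Col6a3 and Col6a4 (vertical axes) against Col6a1 (horizontal) in 30 libraries, coloured by treatment, with circles for WT and triangles for HET hosts. Col6a2 and Col6a3 follow Col6a1 (r 0.98 and 0.90), with HET IgG replicate 2 below the others for Col6a3, and Col6a4 shows no such line.

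Levels of different genes can be compared only per length, and the length chosen matters here. Per kilobase of merged exons, the median level was 10.6 CPM for Col6a1, 5.43 for Col6a2, 6.30 for Col6a3 and 0.0502 for Col6a4. The per-length ratio of Col6a1 to Col6a2 had a median of 1.94 on merged exons and 1.22 on the longest transcript. The ratio of Col6a3 to Col6a1 had a median of 0.610 and 0.676 on these lengths, so α3 was below α1 on both, while the ratio of Col6a3 to Col6a2 was 1.17 and 0.814 and had no fixed order. On merged exons, Col6a3 to Col6a1 was 0.630 ± 0.0165 in WT anti-PD1 (SD, n = 4) and 0.639 ± 0.111 in WT IgG (SD, n = 5), a difference within the spread. HET IgG replicate 2 had the lowest ratio of all libraries, 0.218, followed by 0.401, and also the highest Col6a1 to Col6a2 ratio, 2.95.

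The 10 genes whose log2 values were most like the mean of Col6a1, Col6a2 and Col6a3 over 30 libraries were Adamts2 (r 0.92), Bgn (0.92), Cd248 (0.88), Prrx1 (0.88), Col5a2 (0.87), Ebf1 (0.85), Ehd2 (0.83), Col1a2 (0.83), Fbn1 (0.83) and Atp10a (0.82). Adamts2 encodes the enzyme that trims the N-terminal end of procollagens, Bgn the proteoglycan biglycan that binds collagen VI, Cd248 the mesenchymal surface protein endosialin and Prrx1 a transcription factor of mesenchyme. Col5a2 and Col1a2 encode chains of fibril collagens and Fbn1 the microfibril protein fibrillin-1. Their log2 differences between WT anti-PD1 and WT IgG ran from 0.61 for Ehd2 to 1.58 for Col1a2. For Col6a4 the closest were Angpt2 (r 0.79), Parp6 (0.75) and Arhgef25 (0.75). The likeness is a description over libraries that share their treatment groups and tissue content.

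The other genes of the pathway were read from 6 lists. Of 8 fibril collagens and collagens of fibril surfaces, all 8 were higher in WT anti-PD1 than in WT IgG (median log2 difference 1.08, against -0.02 over all genes, of which 45.3% were higher). Col1a1, a chain of the main fibril collagen, averaged 251 ± 209 CPM (SD, n = 4) and 137 ± 206 CPM (SD, n = 5), a difference of 1.56 (SE 0.76). Col3a1, the collagen of reticular fibres, differed by 1.43 (SE 0.64) and Col1a2 by 1.58 (SE 0.69). None of these passed the test across all genes.

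Of 7 matrix partners that passed the filter, 6 were higher (median 0.58). Bgn differed by 1.57 (SE 0.52); Col4a1, a basement membrane collagen, by 0.70 (SE 0.24); Fn1, fibronectin, by 0.38 (SE 0.45); and Hspg2, perlecan, by 0.27 (SE 0.31). Of 9 receptor genes, 4 were higher (median -0.02). Itgb1, the shared chain of collagen-binding integrins, differed by -0.15 (SE 0.13), Ddr1 by 0.09 (SE 0.19) and Ddr2, a collagen receptor of mesenchymal cells, by -0.03 (SE 0.28). The anthrax toxin receptors Antxr1 and Antxr2, which bind collagen VI or its α3 fragment, differed by -0.05 (SE 0.15) and -0.02 (SE 0.19); they are named for that role, outside the naming rule.

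Genes for folding and secretion of collagen were near 0 as a group: 8 of 15 were higher (median 0.00). Serpinh1, the collagen chaperone HSP47, differed by 0.24 (SE 0.23), P4hb, the shared subunit of prolyl 4-hydroxylase, by -0.16 (SE 0.17) and Ppib, a proline isomerase, by -0.05 (SE 0.20). Of 9 genes of cleavage and turnover, 4 were higher (median -0.01). Mmp14, a membrane-bound collagenase, differed by -0.11 (SE 0.11), Bmp1, a procollagen protease, by 0.12 (SE 0.21) and Timp2, a protease inhibitor, by -0.01 (SE 0.21). Of 8 TGF-β genes, 5 were higher (median 0.04), with Tgfb1 at -0.06 (SE 0.27), Tgfbr2 at 0.06 (SE 0.21) and Smad3 at 0.03 (SE 0.18).

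Of these 56 genes, 4 had a higher difference than the collagen VI median of 1.54: Col1a1, Col1a2, Bgn and P4ha3, a prolyl 4-hydroxylase subunit (1.74, SE 0.74). P4ha3 is named because of its value. In HET tumors under anti-PD1, 2 of 8 fibril collagens were higher (median -0.25), with Col1a1 at -0.31 (SE 0.87) and Col3a1 at -0.33 (SE 0.73). The same comparison had 5 of 7 matrix partners (median 0.20), 4 of 9 receptors (-0.02), 6 of 15 folding genes (-0.04), 7 of 9 turnover genes (0.11) and 3 of 8 TGF-β genes (-0.19) higher. None was called in either host.

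**Figure D4:**
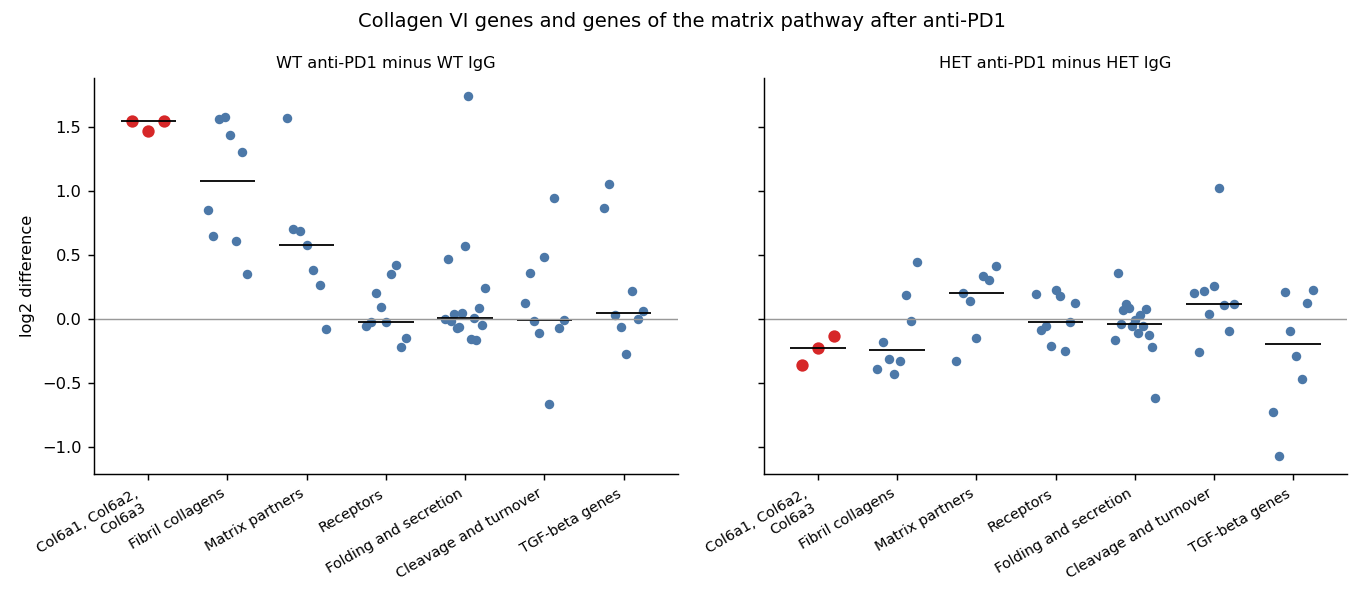
Log2 difference (vertical) of Col6a1, Col6a2 and Col6a3 (red) and of the genes of 6 pathway lists (blue, 1 point a gene) in WT anti-PD1 minus WT IgG (left) and HET anti-PD1 minus HET IgG (right); lines are medians. In WT hosts the fibril collagens (median 1.08) lie nearest to collagen VI (median 1.54) and the receptors, folding, turnover and TGF-β genes centre near 0; in HET hosts the medians lie between -0.25 and 0.20.

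Markers of several stromal and immune cell types were also higher in WT anti-PD1 than in WT IgG. All 12 fibroblast markers were higher (median 1.07), with a summed level of 220 to 368 CPM against 149 to 344 CPM, and none at 0 in either group. Pdgfrb differed by 0.89 (SE 0.29), Thy1 by 1.20 (SE 0.52) and Fbln1 by 0.17 (SE 0.16). All 6 pericyte markers (median 0.66; 262 to 469 against 194 to 347 CPM), all 7 endothelial markers (median 0.47; 419 to 540 against 314 to 483 CPM) and all 8 macrophage markers (median 0.71; 53.7 to 333 against 35.0 to 206 CPM) were higher. Of 8 adipocyte markers, 7 were higher (median 1.17; 25.6 to 110 against 28.1 to 66.1 CPM over the whole list). These sums rest largely on 1 gene a list. In WT anti-PD1 and WT IgG, Fbln1 averaged 172 and 155 CPM, Mcam 196 and 161 CPM, and Fabp4 65.7 and 35.8 CPM. Fbln1 also averaged 141 CPM in HET anti-PD1 and 151 CPM in HET IgG. Of 6 T cell markers, the 2 that passed the filter were higher (median 1.27), at a summed level of 0.285 to 4.28 CPM for the whole list against 0.0566 to 1.15 CPM. Of 7 melanocyte markers, 6 were lower (median -0.16; 20676 to 29713 against 25272 to 32774 CPM). Of 11 muscle markers 7 were higher (median 0.17) and of 10 keratinocyte markers 1 was higher (median -0.82). Their part in the difference of collagen VI was not tested for fibroblast, pericyte, endothelial, macrophage, T cell and melanocyte markers. With the muscle, keratinocyte and adipocyte scores in the model, the differences of Col6a1, Col6a2 and Col6a3 were 1.25, 1.20 and 1.19.

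Across 30 libraries, the mean of Col6a1, Col6a2 and Col6a3 went with the fibril collagen score (r 0.84, rho 0.87) and the matrix partner score (r 0.80, rho 0.83). Its r was 0.66 with the fibroblast score and 0.66 with the endothelial score, 0.58 with the macrophage score, 0.57 with the pericyte score, 0.52 with the T cell score, 0.48 with the adipocyte score, 0.24 with the muscle score, 0.08 with the keratinocyte score and -0.47 with the melanocyte score. These are descriptions over libraries that share groups, depth and tissue content. The group with the highest mean differed between collagen VI and the fibroblast score. WT anti-PD1 had the highest collagen VI mean, 6.67 ± 0.70 log2 units (SD, n = 4), with a fibroblast score of 2.12 ± 1.17, whereas the HET combination had the highest fibroblast score, 2.96 ± 0.57 (SD, n = 4), with a collagen VI mean of 5.75 ± 0.28. WT anti-PD1 replicate 3, the library with the most Col6a1, Col6a2 and Col6a3, had a fibroblast score of 1.32, below those of anti-PD1 replicates 1 and 2 (3.47 and 2.72). The same library had the highest pericyte score of all 30 (5.73) and an endothelial score of 5.15, exceeded by 1 library (5.16). WT anti-PD1 also had the highest mean pericyte score of the 8 groups, 4.89 ± 0.59 (SD, n = 4), against 4.27 ± 0.22 in WT IgG (SD, n = 5). HET anti-PD1 came next by mean pericyte score, but its lead over HET anti-CD40 was far smaller than its SD. The collagen VI mean of HET anti-PD1 was 5.161, near the lowest, 5.157 in WT IgG. Without the 2 farthest libraries, r with the collagen VI mean was 0.38 for the pericyte score and 0.76 for the fibroblast score. Group order at this spread is a description. The part of fibroblasts or pericytes in the collagen VI difference was not tested.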

How the data were processed

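Bulk RNA-seq of 30 tumors was read from 1 deposited table of log2 values, which the authors made with STAR on mm10 and edgeR, per the submitters' processing notes; versions are not given in the sources used here, nor is strand use. The deposited log2 values are CPM on effective library sizes with an average prior count of 2, as the values themselves show: whole reads came back for 100% of them (within 0.01 read). CPM here were rebuilt from those reads, so they hold no prior count. The prior understates differences of low genes such as Col6a4.

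The 15002 genes over log2 0 in 3 or more libraries were fitted with limma 3.58.1 in R 4.3.3 (8 group means, all 30 libraries, intensity trend, Benjamini-Hochberg over all genes tested). A count model was not used on log values; limma voom on recovered reads was an alternative. Of 10 comparisons, 5 were tested for the members; the others use libraries that entered the choice of the family. Lengths, exons and coordinates came from GENCODE M21. The genes named were all members, the 3 most abundant genes of each list reported gene by gene, and the 10 genes most like the mean of Col6a1, Col6a2 and Col6a3 (3 for Col6a4). Members, lists and tests were chosen with earlier results of these data known. The relation in 21 libraries, without HET IgG replicate 2 and within L numbers, and the step between the first groups without each library, were added after seeing the data. Scripts were tested on simulated data. Alternatives covered filter, scale, normalization, model, covariates, replicate block and leaving out each replicate.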

Additional observations from a re-analysis of the deposited data

Results flagged for a closer look

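Of 20 combinations of a collagen VI gene and a group of 4 or 5 libraries, 1 held a library far from the others, about as many as chance gives (1 in 20). Col6a2 in HET IgG replicate 4 had a log2 value of 5.86, with the other 3 controls between 4.78 and 4.93, so that the gap took 0.862 of the group's range. The same library had the highest Col6a1 and Col6a3 of its group (56.8 and 116 CPM) and a muscle score of 4.16, against -2.05 to -0.91 in the other HET IgG libraries. Without it, HET anti-PD1 minus HET IgG was -0.19 for Col6a1, 0.02 for Col6a2 and 0.22 for Col6a3. With all libraries these differences were -0.36, -0.23 and -0.13, so the signs of Col6a2 and Col6a3 turned with this library.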

How the results depend on the processing

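Every alternative left Col6a1, Col6a2 and Col6a3 higher in WT anti-PD1 than in WT IgG. The family was chosen on this comparison and on the same libraries, so the kept sign is a description and no test. L number as a covariate, L5 alone and leaving out WT anti-PD1 replicate 4 gave the same values, since each sets that library aside here. Col6a1 ran from 1.06 (library weights) to 1.85 (L number as a covariate), Col6a2 from 1.03 to 1.71 and Col6a3 from 1.02 to 1.84; leaving out 1 library gave 1.28 to 1.85, 1.22 to 1.71 and 1.30 to 1.84. No member was called in any tested comparison under any alternative, so none lost a call. Of the values of members and of their median under the alternatives, 877 kept their direction and side of the threshold or, with no test, moved by less than the replicate SD; 49 changed direction and 19 moved by more. With L number added to the model, the median of Col6a1, Col6a2 and Col6a3 was 1.71 for WT anti-CD40 and 1.72 for the WT combination minus WT IgG, and 1.43 for HET minus WT IgG. With it, HET combination minus HET IgG was -0.057 for Col6a1 and -0.040 for Col6a2, HET minus WT anti-CD40 was -0.17 and -0.15, and HET minus WT combination was -0.34 and -0.46. The L number is nearly the same as the group, and the cause was not tested. The step from L5 to L6 rests on WT anti-PD1 replicate 4 alone, and that from L6 to L7 or L8 on HET IgG replicate 1. HET anti-PD1 minus HET IgG was 0.20 for Col6a3 with the covariate; within L7 it was 0.028 for Col6a2 and 0.57 for Col6a3. With muscle, keratinocyte and adipocyte scores as covariates, HET anti-CD40 minus HET IgG was -0.18 for Col6a1, 0.35 for Col6a4 and 0.034 for the median; HET combination minus HET IgG was -0.50, -0.34, -0.080 and 0.66 for Col6a1, Col6a2, Col6a3 and Col6a4 and -0.34 for the median. With the same scores, HET minus WT anti-CD40 was -0.45, -0.43, -0.62 and 0.50 with a median of -0.45, and HET minus WT combination was -0.62, -0.59, -0.52 and 0.92 with a median of -0.59; the cause was not tested. Col6a4 was 0.0082 on log2(CPM + 1) for HET minus WT anti-CD40 and 0.0043 with plain library size for HET minus WT combination. Same-numbered libraries share only a number: in no comparison did every pair of same-numbered libraries deviate together (correlation over 0.1). With the replicate block, Col6a3 in HET minus WT combination was -0.025; no member was called with the block. Leaving out 1 library at a time, HET anti-PD1 minus HET IgG ran from -0.82 to 0.079 for Col6a1, -0.60 to 0.14 for Col6a2 and -0.64 to 0.31 for Col6a3, and HET combination minus HET IgG for Col6a4 from -0.53 to 0.097. HET minus WT anti-CD40 ran from -0.088 to 0.44, -0.070 to 0.52, -0.020 to 0.39 and -0.27 to 0.30 for Col6a1 to Col6a4 in turn, and HET minus WT combination from -0.25 to 0.40, -0.20 to 0.51, -0.29 to 0.26 and -0.25 to 0.45. A stricter filter removed Col6a4. Limma calls over all genes stayed at 0 in each comparison, except with library weights (50, 60, 407 and 23 calls for HET anti-PD1, HET anti-CD40 and HET combination minus HET IgG and for HET minus WT combination) and without HET IgG replicate 4 (1 and 6) or HET anti-PD1 replicate 2 (1). Col6a4 rests on 3 to 83 reads a library, where 1 read is worth 0.0276 to 0.0596 CPM.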
